A study of Mus musculus with 8 samples.

Results

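Metabotropic glutamate receptor genes *Grm2*, *Grm3*, *Grm4*, *Grm5*, *Grm7* and *Grm8* were followed across the 8 libraries of a study of the *Scn1a* 1b non-coding interval in mouse brain. The members were the rows of the gene matrix with these symbols, which gave 6 of 24015 entries, each with reads in every library. Libraries came from C57BL/6N mice at postnatal day 7 (P7), each from 1 animal. The groups were WT, with 0 deleted alleles (2 males), 1b+/-, with 1 deleted allele (4 animals, replicates 1 and 2 male, replicates 3 and 4 female), and 1b-/-, with 2 deleted alleles (2 females). The deletion was made with Cas9 and bred as a line, it is present in all cells, and no group carried another allele or received a treatment. WT and 1b-/- animals were of opposite sex, so genotype and sex cannot be told apart between them. Hippocampus is the tissue in the sample labels, but forebrain is the tissue in the methods of the study. Markers of neocortex (8 genes, summing to 1507 to 2291 CPM, that is, counts per 1e+06 scaled reads) and of striatum (*Drd1a*, 17.9 to 25.8 CPM) were present in all 8 libraries. The 7 hippocampal markers summed to 111 to 160 CPM, of which *Pvrl3* made up 87.5 to 116 CPM. The dentate marker *Prox1* read 11.6 to 30.8 CPM, whereas *C1ql2* and *Tdo2* read at most 1.35 and 1.21 CPM, and *Spink8* had 0 counts in 3 libraries and at most 0.505 CPM in the others. The exact region cannot be given here.

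Metabotropic glutamate receptors are G protein-coupled receptors that respond to glutamate on a slower time scale than the ion channel receptors. Group I, here *Grm5*, couples to Gq and phospholipase C and lies largely around the postsynaptic density. Group II (*Grm2* and *Grm3*) and group III (*Grm4*, *Grm7* and *Grm8*) couple to Gi/o, lower cyclic AMP and, at many presynaptic endings, reduce transmitter release. In forebrain *Grm5* is prominent in principal neurons and in immature astrocytes, *Grm3* is expressed in astrocytes as well as neurons, and *Grm7* sits in the active zone of many terminals. In bulk tissue, fewer cells of a type and less RNA per cell cannot be told apart.

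Libraries held 2947770 to 20878772 counts, so that 3 counts, the limit that a count of 0 allows, corresponded to 0.145 to 1.0 CPM. These limits and the intervals on counts below cover counting error only. CPM values were scaled by TMM (trimmed mean of M-values), a scaling to a common composition of the libraries. The targeted gene *Scn1a* read 45.1 and 40.5 CPM in WT. It read 26.7, 22.2, 25.4 and 15.7 CPM in 1b+/- and 3.18 and 2.0 CPM in 1b-/-. No groups overlapped, and the log2 fold change of 1b-/- against WT was -3.97 (edgeR adjusted p = 5.96e-04), whereas that of 1b+/- against WT was -0.90 (edgeR adjusted p = 0.381).

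The 6 genes lie on 5 chromosomes of the mm9 build and most span long genomic intervals. *Grm7* (chromosome 6, 110595575 to 111517224, plus strand) spans 922 kb and *Grm8* (chromosome 6, 27225121 to 28085178, minus strand) spans 860 kb. *Grm5* (chromosome 7, 94750952 to 95283417, plus strand) spans 532 kb, *Grm3* (chromosome 5, 9485236 to 9725352, minus strand) 240 kb and *Grm4* (chromosome 17, 27559332 to 27650286, minus strand) 91.0 kb. *Grm2* (chromosome 9, 106546868 to 106558440, minus strand) is compact, at 11.6 kb with 1 annotated transcript. The median span of the 14294 tested genes found in the annotation was 24.2 kb, so *Grm2* lay below it and the other 5 above. No member lies on the chromosome of *Scn1a*. An exon of *Grm8* overlaps the microRNA *Mir592* on the same strand, and 2 overlaps join *Grm7* to exons of a processed transcript on the opposite strand. Whether counting used strand was not given in the sources used here, so reads of *Grm7* and that transcript could not be separated with certainty.

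Per kilobase of annotated exon, *Grm5* and *Grm3* were the leading receptor transcripts. *Grm5* averaged 42.3 ± 8.13 RPKM (reads per kilobase and per 1e+06 reads, SD, n = 8) and *Grm3* 30.2 ± 4.35. *Grm7* followed at 6.69 ± 1.71 RPKM, *Grm2* at 3.42 ± 0.619, *Grm8* at 1.87 ± 0.424 and *Grm4* at 1.23 ± 0.367. The mean order was therefore a group I gene, then a group II gene, then members of groups III and II interleaved, with *Grm4* lowest in every library. *Grm5*, *Grm3*, *Grm8* and *Grm4* kept their places in all 8 libraries, while *Grm7* and *Grm2* changed places with each other in 1b+/- replicate 2.

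Each neighbouring pair in this order was compared within libraries by an exact two-sided sign-flip permutation test, adjusted over the 5 pairs. The order came from the same values, so the pairs and their directions were set by the data tested. The p-values therefore describe how steady each step was across libraries and are not separate support for the order. The RPKM of *Grm5* was 1.39-fold that of *Grm3* (range over libraries 1.10 to 1.63, higher in 8 of 8, adjusted exact p = 0.00977). The RPKM of *Grm3* was 4.62-fold that of *Grm7* (3.65 to 6.29, 8 of 8, adjusted exact p = 0.00977), the widest step among these pairs. *Grm7* exceeded *Grm2* by 1.92-fold (0.906 to 2.82, 7 of 8, adjusted exact p = 0.0156). *Grm2* was 1.84-fold above *Grm8* and *Grm8* 1.54-fold above *Grm4*, each in 8 of 8 libraries (adjusted exact p = 0.00977). The unadjusted p of 0.00781 behind those values is the smallest that 8 libraries can give. Dividing by the longest annotated transcript in place of all annotated exons left the order as it was, but *Grm2* and *Grm8* then differed by 1.13-fold with *Grm2* higher in 5 of 8 libraries (exact permutation p = 0.195). The step between these neighbours therefore rested on the length chosen. With the longest transcript *Grm7* was above *Grm2* in 8 of 8 libraries (1.27 to 3.94-fold). The exchange of *Grm7* and *Grm2* in 1b+/- replicate 2 thus also rested on the length.

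**Figure D1:**
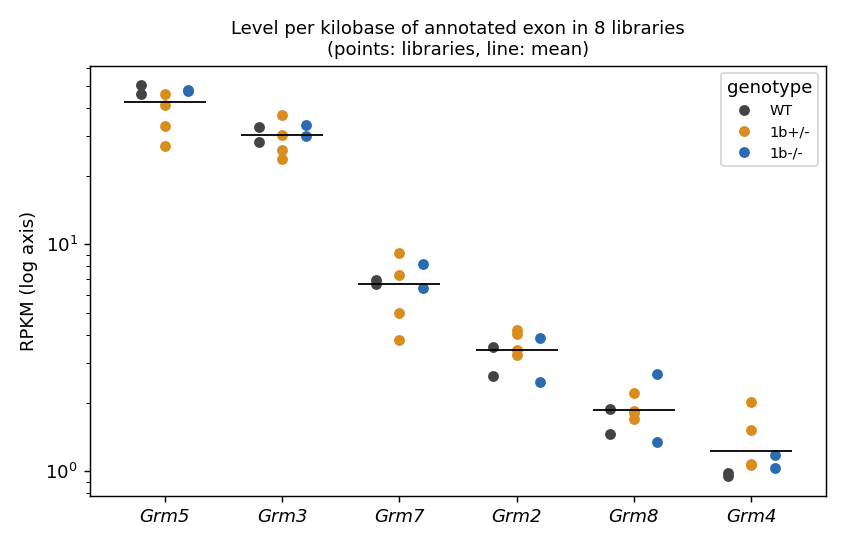
Level of the 6 receptor genes per kilobase of annotated exon (RPKM, log axis) in the 8 libraries, coloured by genotype, with a line at the mean. *Grm5* (mean 42.3) and *Grm3* (30.2) sit above the other 4, whose means run from 6.69 down to 1.23.

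Of the summed RPKM of the 6 genes, group I (*Grm5*) took 43.2% to 52.9% per library, group II 36.0% to 44.9% and group III 9.65% to 14.2%. The *Grm5* share was 52.6% and 52.9% in WT and 51.3% and 51.2% in 1b-/-. In 1b+/- it was 43.2%, 43.7%, 51.1% and 46.7%, below every library of the other genotypes, although 1b+/- replicate 3 lay within a percentage point of 1b-/-.

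None of the 6 members passed an adjusted p of 0.05 in any comparison. In edgeR's quasi-likelihood test, 0 of 6 were called in 1b+/- against WT, where 0.0834% of 15588 tested genes were called. For 1b-/- it was again 0 of 6, whether WT or 1b+/- was the reference, against 0.00642% of all genes in each case. At an unadjusted p under 0.05 the count in this fit was also 0 of 6 in all 3 genotype comparisons, against 4.34%, 1.64% and 1.23% of all genes. The likelihood ratio test of edgeR and the Wald test of DESeq2 also called 0 of 6 after adjustment. The median member log2 fold change was 0.06, 0.08 and 0.08 in those comparisons, beside 0.01, -0.01 and -0.00 over all tested genes. Comparisons with WT use the same 2 WT libraries and are not independent of each other.

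*Grm5* encodes the group I receptor of this set, an activator of Gq. In WT it read 405 and 370 CPM. In 1b+/- replicates 1 to 4 it read 331, 219, 369 and 267 CPM, and in 1b-/- 383 and 388 CPM. All 4 heterozygous libraries lay below the WT and 1b-/- libraries, the closest being 1b+/- replicate 3 against WT replicate 2. Group means were 388 ± 24.8 (SD, n = 2), 296 ± 66.6 (n = 4) and 385 ± 3.54 CPM (n = 2). The log2 fold change was -0.39 (SE 0.18, 95% interval -0.79 to 0.02) in 1b+/- against WT, with an unadjusted p of 0.0592 and an edgeR adjusted p of 0.9999. It was -0.01 (SE 0.22, -0.48 to 0.46) in 1b-/- against WT. Between 1b-/- and 1b+/- it was 0.38 (SE 0.18, -0.03 to 0.78, higher in 1b-/-), with an unadjusted p of 0.0657 in edgeR and an adjusted p of 1.0. The intermediate genotype, not the homozygous one, thus held the low values, and neither difference passed the threshold. Summed oligodendrocyte lineage markers (7 genes, none at 0) separated the same libraries in the opposite direction. They were at 159 and 182 CPM in WT, 232, 217, 219 and 213 CPM in 1b+/- and 175 and 198 CPM in 1b-/-, and their part in the *Grm5* values was not tested.

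The spread of *Grm5* among the 1b+/- libraries was wider than counting error. Replicate 2 held 2170 reads, with a 95% Poisson interval of 210 to 229 CPM, and replicate 3 held 7617 reads, with an interval of 361 to 378 CPM. The coefficient of variation over the 8 libraries was 19.2%, against a median of 11.4% among 735 genes within 1.5-fold of its level, which put *Grm5* at percentile 93.5 of them. Without 1b+/- replicate 2 the log2 fold change against WT was -0.26, and without replicate 3 it was -0.50.

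*Grm3*, the group II receptor shared by neurons and astrocytes, was at 118 and 101 CPM in WT. The 1b+/- libraries read 133, 84.9, 108 and 92.8 CPM and the 1b-/- libraries 120 and 107 CPM. The 1b+/- group held both the highest and the lowest library and so spanned the other genotypes. The log2 fold change was -0.06 (SE 0.18, -0.45 to 0.33) in 1b+/- against WT, 0.06 (SE 0.21, -0.39 to 0.51) in 1b-/- against WT and 0.12 (SE 0.18, -0.28 to 0.51) in 1b-/- against 1b+/-. All 3 intervals include 0, and none reaches beyond about 0.5 in size.

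*Grm2*, the other group II receptor and the one with the more strictly neuronal expression, read 8.68 and 11.6 CPM in WT. It was at 10.8, 13.8, 11.4 and 13.4 CPM in 1b+/- and at 8.20 and 12.8 CPM in 1b-/-. The WT and 1b-/- pairs covered nearly the same range, and the groups overlapped in each comparison. Fitted log2 fold changes were 0.28 (SE 0.24, -0.24 to 0.80) in 1b+/- against WT, 0.03 (SE 0.28, -0.59 to 0.65) in 1b-/- against WT and -0.25 (SE 0.25, -0.80 to 0.29) in 1b-/- against 1b+/-.

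*Grm4*, a presynaptic group III receptor best known from cerebellar granule cells, was the lowest of the 6. It had 63 and 33 reads (5.21 and 5.06 CPM) in WT. It had 163, 80, 118 and 17 reads (10.8, 8.08, 5.72 and 5.68 CPM) in 1b+/-, and 51 and 22 reads (6.24 and 5.51 CPM) in 1b-/-. All 1b+/- and 1b-/- libraries lay above both WT libraries, but only 1b+/- replicate 1 had a Poisson interval clear of theirs. The male 1b+/- libraries stood above every other library. Group means were 5.13 ± 0.108, 7.56 ± 2.41 and 5.88 ± 0.520 CPM (SD).

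For *Grm4* the log2 fold change in 1b+/- against WT was 0.58 (SE 0.30, -0.07 to 1.24), with an unadjusted p of 0.0758 and an edgeR adjusted p of 0.9999. In 1b-/- against WT it was 0.20 (SE 0.36, -0.58 to 0.98) and in 1b-/- against 1b+/- it was -0.38 (SE 0.31, -1.05 to 0.29). Poisson intervals ran from 9.17 to 12.5 CPM for 1b+/- replicate 1 and from 4.73 to 6.85 CPM for 1b+/- replicate 3, so these libraries of the same genotype differed by more than counting error. The 17 reads of 1b+/- replicate 4 allowed 3.31 to 9.09 CPM.

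Within 1b+/-, *Grm4* averaged 9.42 ± 1.89 CPM in the 2 males and 5.70 ± 0.0309 CPM in the 2 females. The log2 fold change of females against males was -0.73 (SE 0.28, -1.35 to -0.11), with an unadjusted p of 0.0261 and an edgeR adjusted p of 0.9999. It was the only member with an unadjusted p under 0.05 there, 1 of 6 against 2.66% of all genes, and 0 of 6 passed the adjusted threshold against 0.0321%. The WT males, at 5.21 and 5.06 CPM, were as low as the females. With sex as a covariate the log2 fold change of 1b+/- against WT rose to 0.88 (unadjusted p = 0.00948, edgeR adjusted p = 0.647). Only 1b+/- held both sexes, so that value rested on the 2 male 1b+/- libraries against WT, and males alone gave 0.88 too. It is therefore not a value for all 1b+/- animals corrected for sex. Without the male 1b+/- libraries the log2 fold change was 0.15 (SE 0.30, unadjusted p = 0.625 in edgeR).

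*Grm7*, the widespread group III receptor of the active zone, read 40.8 and 39.4 CPM in WT. It read 54.1, 22.2, 42.9 and 29.4 CPM in 1b+/- and 37.7 and 48.3 CPM in 1b-/-. Replicates 1 and 2 of 1b+/-, both male, were the highest and the lowest of all 8 libraries, so the groups overlapped. Their Poisson intervals, 50.5 to 58.0 CPM and 19.4 to 25.4 CPM, were far apart. Fitted log2 fold changes were -0.09 (SE 0.29, -0.72 to 0.54) in 1b+/- against WT, 0.09 (SE 0.34, -0.65 to 0.83) in 1b-/- against WT and 0.18 (SE 0.29, -0.46 to 0.82) in 1b-/- against 1b+/-. Its coefficient of variation was 25.6%, against a median of 13.9% among 2627 genes of like level (percentile 92.4).

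*Grm8*, the third presynaptic group III receptor, read 14.8 and 11.5 CPM in WT. It read 17.4, 14.1, 14.4 and 13.4 CPM in 1b+/- and 10.5 and 21.03 CPM in 1b-/-. The lowest and the highest library were both 1b-/-, with Poisson intervals of 8.42 to 13 and 16.8 to 26.0 CPM that did not touch. Fitted log2 fold changes were 0.18 (SE 0.26, -0.39 to 0.74) in 1b+/- against WT, 0.21 (SE 0.31, -0.46 to 0.88) in 1b-/- against WT and 0.04 (SE 0.27, -0.54 to 0.62) in 1b-/- against 1b+/-. Without 1b-/- replicate 1 the value against WT was 0.67, and without 1b-/- replicate 2 it was -0.33, so a single library set its sign.

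**Figure D2:**
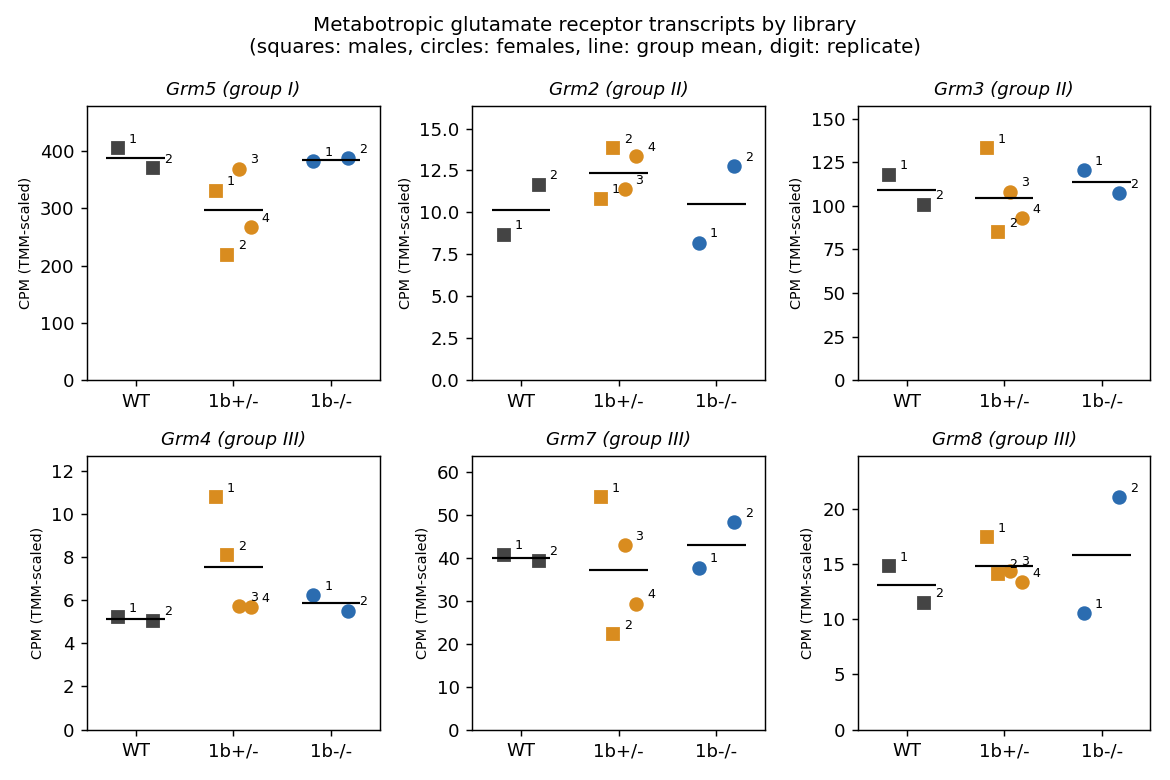
TMM-scaled CPM of each receptor gene by genotype, with squares for males, circles for females, digits for replicates and a line at each group mean. The 4 heterozygous *Grm5* values (219 to 369) lie below the others, the male heterozygous *Grm4* values (10.8 and 8.08) lie above the others, and the 1b-/- *Grm8* values are 10.5 and 21.03.

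Groups did not overlap for 2 of 6 members in 1b+/- against WT (*Grm4* above and *Grm5* below), where this held for 12.3% of all tested genes. It held for 1 of 6 in 1b-/- against WT (*Grm4*), against 23.6% of all genes, and for 1 of 6 in 1b-/- against 1b+/- (*Grm5*), against 7.39%. With 6 members these counts are small, and 1 of 6 in 1b-/- against WT is near the share among all genes. In a model per deleted allele the log2 slopes of the members ran from -0.01 for *Grm5* to 0.11 for *Grm4*, with 0 of 6 called against 0.0385% of all genes. The count at an unadjusted p under 0.05 was 0 of 6 in that model, against 1.73% of all genes.

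**Figure D3:**
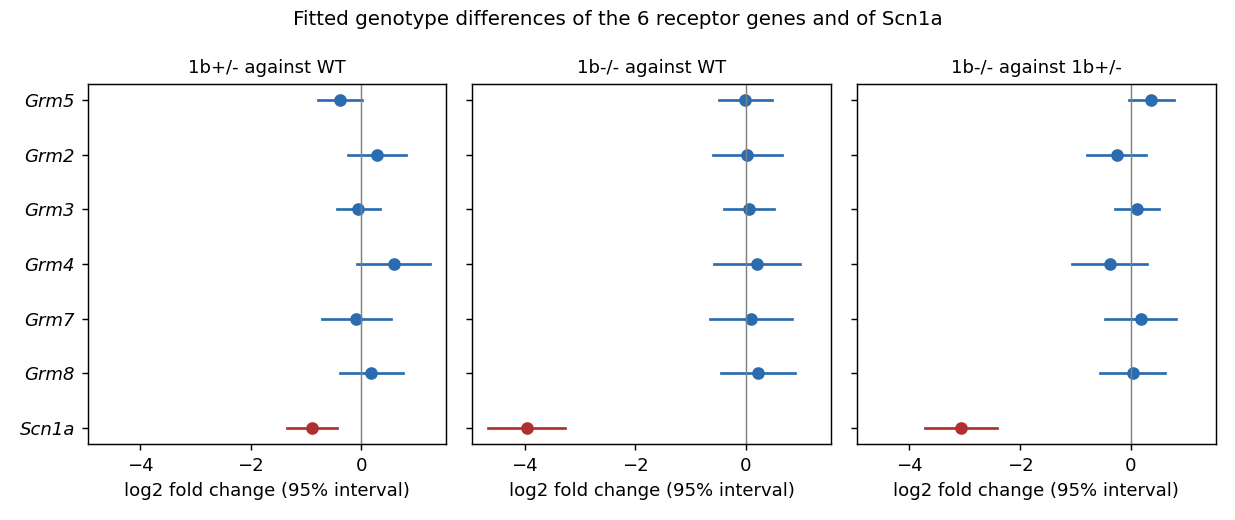
Fitted log2 fold changes (points) with 95% intervals (lines) of the 6 receptor genes and of *Scn1a* in the 3 genotype comparisons from edgeR. All 18 receptor intervals include 0, while *Scn1a* is at -3.97 in 1b-/- against WT.

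Libraries also differed in markers of brain regions and of other cell types. The summed CPM of 8 midbrain and hindbrain markers was 3.37 to 9.01 in WT, 4.17 to 31.5 in 1b+/- and 3.00 to 5.51 in 1b-/-. It was highest in 1b+/- replicate 1 (31.5) and replicate 2 (12.9), the libraries highest in *Grm4*. Replicate 1 was the highest library for 3 of the 8 genes and replicate 2 for 2. *En1* and *Gata3* made up most of the sum in replicate 1, at 10.3 and 16.8 CPM, against at most 1.51 and 4.13 CPM elsewhere. *Tph2* was at its lowest in replicate 1 (0.330 CPM). *Th* read 0.594 CPM there, against 3.67 CPM in 1b+/- replicate 4. Of the 8 genes, 5 had 0 counts in 1b-/- replicate 2 (*En1*, *Hoxa2*, *Hoxb3* and *Slc6a3* among them) and 3 in 1b+/- replicate 4 (*Hoxa2* and *Hoxb3* among them), the shallowest libraries. Cerebellar markers (7 genes) summed to 165 CPM in 1b+/- replicate 1, against 72.1 to 94.5 CPM elsewhere, and 5 of the 7 were highest there. *Car8* (51.3 CPM), *En2* (15.6) and *Barhl1* (14.3) read at most 19.8, 2.52 and 3.53 CPM elsewhere. *Gabra6*, a marker of mature granule cells, read no more than 0.330 CPM in any library. The part of these marker lists in the *Grm4* values was not tested.

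For *Grm3*, *Grm5* and *Grm7*, 1b+/- replicate 2 was the lowest library. The sum of 8 striatal markers was lowest there too (136 CPM, against 159 to 247 CPM elsewhere), with 5 of the 8 genes at their minimum. The summed olfactory bulb markers were highest in that library (67.2 CPM, against 4.44 to 34.1 elsewhere, mostly *Cdhr1*), and so was *Grm2*. By group, the olfactory bulb sum was 4.44 and 6.78 CPM in WT, 7.99 to 67.2 in 1b+/- and 6.73 and 26.0 in 1b-/-, and *Tbx21* had 0 counts in WT replicate 2. The striatal sum was 191 and 218 CPM in WT, 136 to 228 in 1b+/- and 187 and 247 in 1b-/-. Summed astrocyte markers were 337 and 516 CPM in WT, 497 to 705 in 1b+/- and 434 and 452 in 1b-/-, with none of the 8 at 0. Choroid plexus markers (8 genes, none at 0) were also lowest in 1b+/- replicate 2, where 6 of the 8 were at their minimum. Their sum was 969 and 1030 CPM in WT, 227, 30.5, 186 and 978 CPM in 1b+/- and 426 and 845 CPM in 1b-/-. *Ttr* made up most of it except in 1b+/- replicate 2, at 884 and 938 CPM in WT and 6.77 CPM in that replicate. *Otx2* was instead highest in 1b+/- replicate 1 (24.8 CPM), and *Kl* read 2.37 to 3.72 CPM over all libraries. Thalamic markers summed to 114 and 270 CPM in WT, 138 to 238 in 1b+/- and 132 and 204 in 1b-/-, and interneuron markers to 947 to 1346 CPM over all libraries. The part of these lists in the receptor values was not tested.

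**Figure D4:**
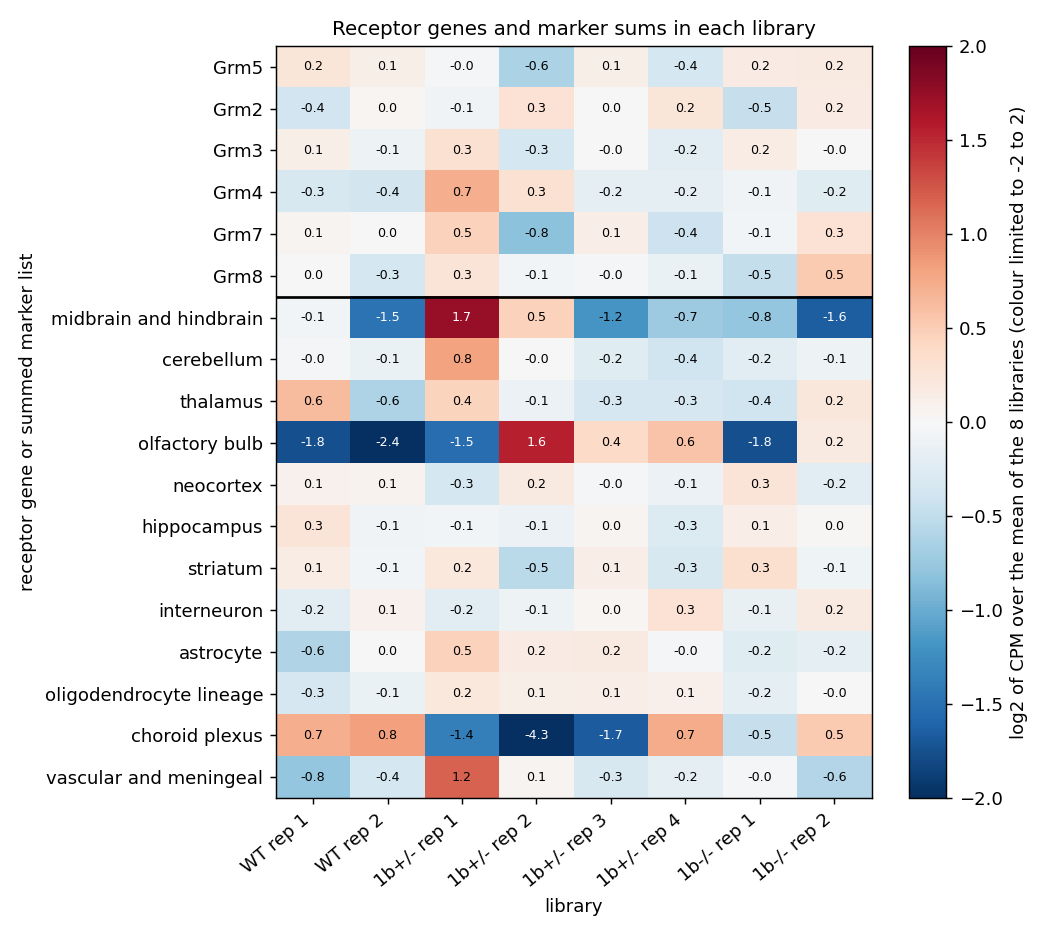
Log2 of CPM over the mean of the 8 libraries (colour limited to -2 to 2) for each receptor gene and each summed marker list, by library. *Grm4* and the midbrain and hindbrain sum are both highest in 1b+/- replicates 1 and 2, and *Grm3*, *Grm5*, *Grm7* and the striatal sum are all lowest in 1b+/- replicate 2.

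Among the 15 pairs of members, correlation across the 8 libraries was tested on log2 CPM by exact permutation, and none passed adjustment. *Grm3* and *Grm7* had a Pearson r of 0.844 (exact permutation p = 0.00764, adjusted p = 0.115) and a Spearman rho of 0.667 (exact permutation p = 0.0831, adjusted p = 0.397). Without 1b+/- replicates 1 and 2, the libraries farthest from the median, r was 0.507. *Grm2* and *Grm3* had an r of -0.740 (exact permutation p = 0.0366, adjusted p = 0.169) and a rho of -0.905 (exact permutation p = 0.00456, adjusted p = 0.0685), and r was -0.869 without WT replicate 1 and 1b-/- replicate 1. *Grm5* and *Grm7* had an r of 0.807 (exact permutation p = 0.0191, adjusted p = 0.144) and a rho of 0.429 (exact permutation p = 0.299, adjusted p = 0.613). Without 1b+/- replicates 2 and 4 that r was -0.647, so the relation rested on those libraries. Genotype groups of 2 and 4 libraries were too small for values within them.

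For each member, the genes with the closest profile over the same 8 libraries were listed by Pearson r of log2 CPM among 9608 genes (9609 for *Grm4*) with a mean of at least 10 CPM, as a description without a test. They were *Usp12* (r = 0.992) and *Camk4* (0.991), a calcium/calmodulin-dependent kinase, for *Grm5*. They were *Tac1* (0.955), a neuropeptide precursor, and *Foxp2* (0.950), a transcription factor, for *Grm3*. *Tmem245* (0.994) came closest to *Grm2*. *Piezo2* (0.976), a mechanosensitive channel, and *Tfap2b* (0.972), a transcription factor, came closest to *Grm4*. *Rapgef4* (0.977) and *Chd3os* (0.974) did so for *Grm7*, and *Camk2n1* (0.992) and *Usp28* (0.949) for *Grm8*. They are the top of a search over all of those genes in 8 libraries, and the genes of a library share its depth and composition.

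The wider pathway was read from lists of 52 genes, of which 51 were tested. *Grm6*, the retinal group III receptor, was not tested. In edgeR 0 of 51 passed the adjusted threshold in each genotype comparison. The count at an unadjusted p under 0.05 was 1 of 51 in 1b+/- against WT (1.96%, beside 4.34% of all tested genes) and 0 in the other comparisons. Against WT, the median log2 fold change of the 51 was -0.02 in 1b+/- and -0.02 in 1b-/-, and between 1b-/- and 1b+/- it was 0.03. By role, in 1b+/- against WT the medians were -0.10 for 9 Gq coupling genes, -0.05 for 13 Gi/o coupling genes, 0.10 for 9 scaffolds, -0.11 for 12 regulators and synaptic partners and 0.07 for 7 glutamate transport and recycling genes.

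*Kcnj6*, a G protein-gated potassium channel subunit opened by Gi/o receptors, was the gene with an unadjusted p under 0.05. It read 4.55 and 2.45 CPM in WT, 8.98, 5.25, 5.14 and 4.67 CPM in 1b+/- and 4.41 and 4.51 CPM in 1b-/-. All 1b+/- libraries were above the others, with 1b+/- replicate 1 far above. The closest was 1b+/- replicate 4, with 14 reads (4.67 CPM), against WT replicate 1 (4.55 CPM). Groups did not overlap in 1b+/- against WT for 12.3% of all tested genes. The log2 fold change of *Kcnj6* in 1b+/- against WT was 0.77 (SE 0.35, unadjusted p = 0.0497, edgeR adjusted p = 0.9999). *Rgs7*, which speeds the shut-off of Gi/o signals, had the next smallest p there, with a log2 fold change of -0.37 (SE 0.20, unadjusted p = 0.0865 in edgeR). Between 1b-/- and 1b+/- the smallest p belonged to *Shank2*, a postsynaptic scaffold (0.38, unadjusted p = 0.0588 in edgeR), and *Pick1*, a protein that binds the tail of *Grm7*'s receptor (0.36, unadjusted p = 0.157). These values did not pass adjustment over all genes.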

How the data were processed

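The authors aligned single-end reads of stranded poly(A) libraries to mm9 with STAR 2.7.2 and counted them with featureCounts. The deposited values are raw counts per gene symbol, whole numbers with no normalization. The annotation release, use of strand and treatment of multimapping reads were not given in the sources used here. From these counts, 15588 of 24015 entries reached 1 CPM in some library and were tested in R 4.3.3 by quasi-likelihood (edgeR 4.0.16) after TMM scaling, with genotype as the only factor and all 8 libraries in the fit. P-values were adjusted by Benjamini-Hochberg at 0.05 over all tested genes. Further contrasts used the number of deleted alleles, and sex within 1b+/-. RPKM used annotated exon length from GENCODE for mm9. Neighbouring members in level were compared by exact sign-flip tests and pairs by exact permutation. Confidence intervals were 95%, exact Poisson for counts. The tests were checked on simulated data.

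The members, gene lists and tests were chosen with earlier results of these data known. The text names the members, *Scn1a*, for the pathway lists the 2 genes with the smallest unadjusted p per genotype comparison where none passed, and up to 2 closest genes per member. Some genes that this rule selects are not reported here. Regional and vascular markers are named where their list stands beside a result. Alternatives were RLE (relative log expression) and upper quartile scaling, filterByExpr, no filter, the likelihood ratio test, DESeq2 1.42.0, sex as a covariate, only the groups compared, 1 sex alone, the longest transcript, and omission of each library. Replicates were numbered in the order of deposit. Per the methods of the study, libraries of a sequencing round were pooled and read in a shared lane. Litters and preparation batches were not given in the sources used here, so p-values cover the spread between these animals only.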

Additional observations from a re-analysis of the deposited data

Results flagged for a closer look

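A gap test (Dixon, at its 95% critical value) was run on 25 measures within the 1b+/- group, namely members, *Scn1a*, pathway genes named in the text and marker sums. It picked out 2, where chance gives about 1 in 20, or 1.25. *Kcnj6* was at 8.98 CPM in 1b+/- replicate 1, against 4.67 to 5.25 CPM in the other 1b+/- libraries. The summed vascular and meningeal markers were at 1164 CPM in 1b+/- replicate 1, against 412 to 535 CPM in the other 1b+/- libraries. The collagen genes *Col1a1* (380 CPM) and *Col1a2* (539 CPM) made up most of that sum. Of the 7 genes, 3 were highest in that library. *Flt1*, at 31.4 CPM, was lower there than in the other 1b+/- libraries (36.4 to 42.1 CPM). *Pecam1* (45.2 CPM), *Cldn5* (26.5) and *Dcn* (121) lay within the range of those libraries. None of the 6 receptor genes was picked out. The WT and 1b-/- groups, with 2 libraries each, could not be examined in this way.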

How the results depend on the processing

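The count of members past the adjusted threshold was 0 of 6 in every comparison under every alternative run, and so was the count of pathway genes. The count at an unadjusted p under 0.05 was less steady. Under some alternatives *Grm4* and *Grm5* in 1b+/- against WT, and *Grm5* in 1b-/- against 1b+/-, were below that limit. The number of neighbouring pairs in the order by RPKM that differed was 4 of 5 with the longest annotated transcript, against 5 of 5, because *Grm2* and *Grm8* have different ratios of the 2 lengths. Of 498 member fold changes over the alternatives, 463 kept their sign and 35 changed it, none of them called. The log2 fold change of *Grm5* became 0.011 in 1b-/- against WT and 0.0046 per deleted allele with upper quartile scaling. *Grm2* in females against males became 0.012 with no filter. *Grm3* in 1b+/- against WT became 0.0047 in males alone. *Grm4* in 1b-/- against 1b+/- became 0.054 with sex as a covariate, 0.059 in females alone and 0.058 without the male 1b+/- libraries, the last an alternative chosen after seeing the data. The cause was not tested.

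With each library left out in turn, log2 fold changes in 1b+/- against WT ran from -0.20 to 0.061 for *Grm3* and from -0.33 to 0.10 for *Grm7*, which changed sign. Those of *Grm2* ran from 0.072 (without WT replicate 1) to 0.50 (without WT replicate 2), of *Grm8* from 0.014 (without WT replicate 2) to 0.38 (without WT replicate 1), of *Grm4* from 0.35 (without 1b+/- replicate 1) to 0.73 and of *Grm5* from -0.50 to -0.26, with no change of sign. In 1b-/- against WT they ran, with changes of sign, from -0.30 to 0.34 for *Grm2*, from -0.047 to 0.18 for *Grm3*, from -0.074 to 0.058 for *Grm5*, from -0.088 to 0.27 for *Grm7* and from -0.33 to 0.67 for *Grm8*, and without one from 0.099 to 0.28 for *Grm4*. In 1b-/- against 1b+/- they changed sign from -0.58 to 0.061 for *Grm2*, from -0.0081 to 0.42 for *Grm7* and from -0.51 to 0.49 for *Grm8*, and kept it from 0.027 to 0.26 for *Grm3*, from -0.51 to -0.15 for *Grm4* and from 0.26 to 0.50 for *Grm5*. Per deleted allele all 6 changed sign, from -0.12 to 0.20 for *Grm2*, from -0.024 to 0.095 for *Grm3*, from -0.00039 to 0.24 for *Grm4*, from -0.076 to 0.091 for *Grm5*, from -0.053 to 0.087 for *Grm7* and from -0.085 to 0.30 for *Grm8*. For females against males within 1b+/- they ran from -0.19 to 0.17 for *Grm2*, from -0.40 to 0.25 for *Grm3*, from -0.049 to 0.54 for *Grm5* and from -0.54 to 0.74 for *Grm7*, all with changes of sign, and kept their sign from -0.91 to -0.50 for *Grm4* and from -0.31 to -0.016 for *Grm8*.

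Over all genes the counts of calls moved more. In 1b+/- against WT they ran from 0 (sex as a covariate, males alone, without WT replicate 1 or 1b+/- replicate 3) through 13 to 64 (likelihood ratio test), and in 1b-/- against WT from 1 to 33 (no filter). In 1b-/- against 1b+/- they were 0 or 1, per deleted allele 0 to 31 and in females against males 5 to 85. The *Scn1a* call in 1b-/- against WT held under all 17 alternatives, and that in 1b-/- against 1b+/- was lost without either 1b-/- library, while 1b+/- against WT passed with the likelihood ratio test alone (-0.90, edgeR adjusted p = 0.0218). No paired analysis was possible because the labels give no replicate numbers that groups share. Groups of 2 and unequal depth limit the fold changes, most for *Grm4*, and its interval in 1b+/- against WT reaches 1.24 on the log2 scale.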
